A study of Mus musculus with 22 samples.

Results

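A group of 9 mouse genes was selected for the size of the shift of their response to lipopolysaccharide (LPS) in macrophages that lack both MK2 and MK3. The genes were selected on the measured difference of that response between genotypes. They were Prokr1, Plxna2, Stambpl1, Ell3, Nol4l, U90926, Armcx6, Otor and Ggct, 9 of 22383 genes tested. Each was taken from the top of the called genes, in 1 direction, for the difference of the LPS response between MK2/3-/- and wt (Prokr1, Plxna2, Stambpl1, Ell3, Armcx6), between MK2/3-/- and MK2-/- (U90926, Nol4l, Ggct) or in both (Otor). For U90926 and Ggct, the response in MK2/3-/- differed from that in wt by -1.37 (SE 0.93) and 0.52 (SE 0.37). These differences, and the levels that enter them, are therefore a description here and carry no test. All 9 genes had a probe that passed the filter on dim signals, and 10 probes in all mapped to them, since Armcx6 had 2.

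The arrays were hybridised with RNA of bone marrow-derived macrophages (BMDM), cultured for 9 days with 10 ng/ml of the growth factor M-CSF from the femur marrow of male C57BL/6 mice (a C57BL/6J background in the study's methods) aged 10 to 14 weeks. The mice were wild-type (wt), deficient in MK2 (MK2-/-) or deficient in MK2 and MK3 (MK2/3-/-), and the promoter or cell type in which a deletion acts is not given in the sources used here. The cells received 100 ng/ml LPS or medium alone for 360 min. With LPS there were 3 wt, 4 MK2-/- and 4 MK2/3-/- arrays, and with medium 4, 4 and 3.

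MK2 and MK3, encoded by Mapkapk2 and Mapkapk3, are related protein kinases that are switched on by the p38 MAP kinase. LPS activates p38 through the receptor TLR4, and MK2 then acts on proteins that bind AU-rich elements of mRNAs, which sets the stability and translation of inflammatory transcripts. The 9 genes have no pathway in common: they include surface receptors (Prokr1, Plxna2), a deubiquitinase (Stambpl1), a transcription elongation factor (Ell3) and a long non-coding RNA (U90926).

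The genotypes were first checked against the targeted genes. The Mapkapk2 probe averaged 8.88 ± 0.13 (SD, n = 4) on the log2 scale for MK2-/- without LPS, 8.44 ± 0.08 (n = 3) for MK2/3-/- and 11.90 ± 0.77 (n = 4) for wt, the wt arrays all lying higher. With LPS the means were 11.61, 11.02 and 14.89. The Mapkapk3 probe lay between 7.65 and 8.55 on the 4 arrays of LPS-treated MK2/3-/- BMDM against 12.12 ± 0.16 (n = 3) in wt and 12.35 ± 0.30 (n = 4) in MK2-/-, and at 11.16, 13.13 and 12.90 in medium. Whether these probes lie within the deleted parts is not given in the sources used here. The macrophage marker genes averaged 14.3 to 15.5 on every array, and Csf1r was between 17.2 and 18.5 on all arrays. The means of stromal markers ranged from 6.26 to 10.3 between arrays. Within each treatment the genotypes overlapped. With LPS these means were 9.72 to 10.0 in wt, 8.01 to 9.98 in MK2-/- and 7.66 to 10.3 in MK2/3-/-. B cell markers (6 of 6 tested) were lower in MK2-/- than in the other genotypes, with LPS (5.55 to 5.93 against 6.12 to 6.65) and with medium (6.20 to 6.46 against 6.52 to 7.15), and erythroid markers (3 of 5 tested) were higher, with LPS (6.32 to 7.17 against 5.24 to 5.95) and with medium (6.11 to 6.36 against 5.33 to 6.11). By log2 of the summed signals, MK2-/- in medium overlapped with other genotypes. B cell markers were at 10.1 to 10.9, with wt at 10.3 to 10.7. Erythroid markers were at 7.9 to 8.4, with MK2/3-/- at 7.7 to 8.2. With LPS the sums did not overlap. They were 8.66 to 9.21 against 9.22 to 9.44 for B cell and 8.17 to 8.52 against 7.11 to 8.10 for erythroid markers. No marker of these 3 lists was below background throughout a group, and their part in the results was not tested. Neutrophil and precursor markers (5 of 6 tested) overlapped between genotypes by mean within each treatment. By summed signal with LPS, MK2/3-/- (11.8 to 12.4) lay above wt (11.2 to 11.6) and MK2-/- (11.0 to 11.6). With medium the sums were 12.1 to 12.5 in MK2/3-/-, 11.3 to 11.7 in wt and 11.3 to 12.7 in MK2-/-. The part of these markers was not tested either.

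Some arrays stood apart. Both MK2-/- replicate 3 arrays had a mean Y-linked signal of 2.07 (LPS) and 2.33 (medium), whereas it was 6.86 or more on the other 20 arrays, although the labels give male animals. The LPS array of this pair also carried 2927 spots marked by the scanner software, against 115 to 261 elsewhere, none of them on a probe of the 9 genes. Among medium-treated wt arrays, replicate 4 had the highest mean of LPS reference genes, 11.5, with Il6 at 13.36 against 6.41 to 10.02 on the other 3. Results that rest on these arrays are given with and without them. The LPS reference mean was 7.9 to 11.5 on medium-treated wt arrays, above 6.7 to 7.1 in MK2-/- and 6.9 to 7.5 in MK2/3-/-. Leaving out replicate 4 does not remove this gap. By log2 of the summed signals, medium-treated wt (11.7 to 15.4) and MK2/3-/- (11.3 to 12.3) overlapped, and MK2-/- was at 10.6 to 11.5. The part of this gap in the differences to wt was not tested. Every genotype had a slide of its own, so that slide and genotype cannot be told apart when levels are compared between genotypes, whereas within a genotype both treatments were on the same slide.

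The levels of the 9 genes on each array are plotted by group, and the LPS responses by genotype. All levels are quantile-normalised log2 processed signals and are compared within a probe only. In bulk RNA, fewer cells that carry a transcript and less transcript per cell cannot be told apart.

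**Figure D1:**
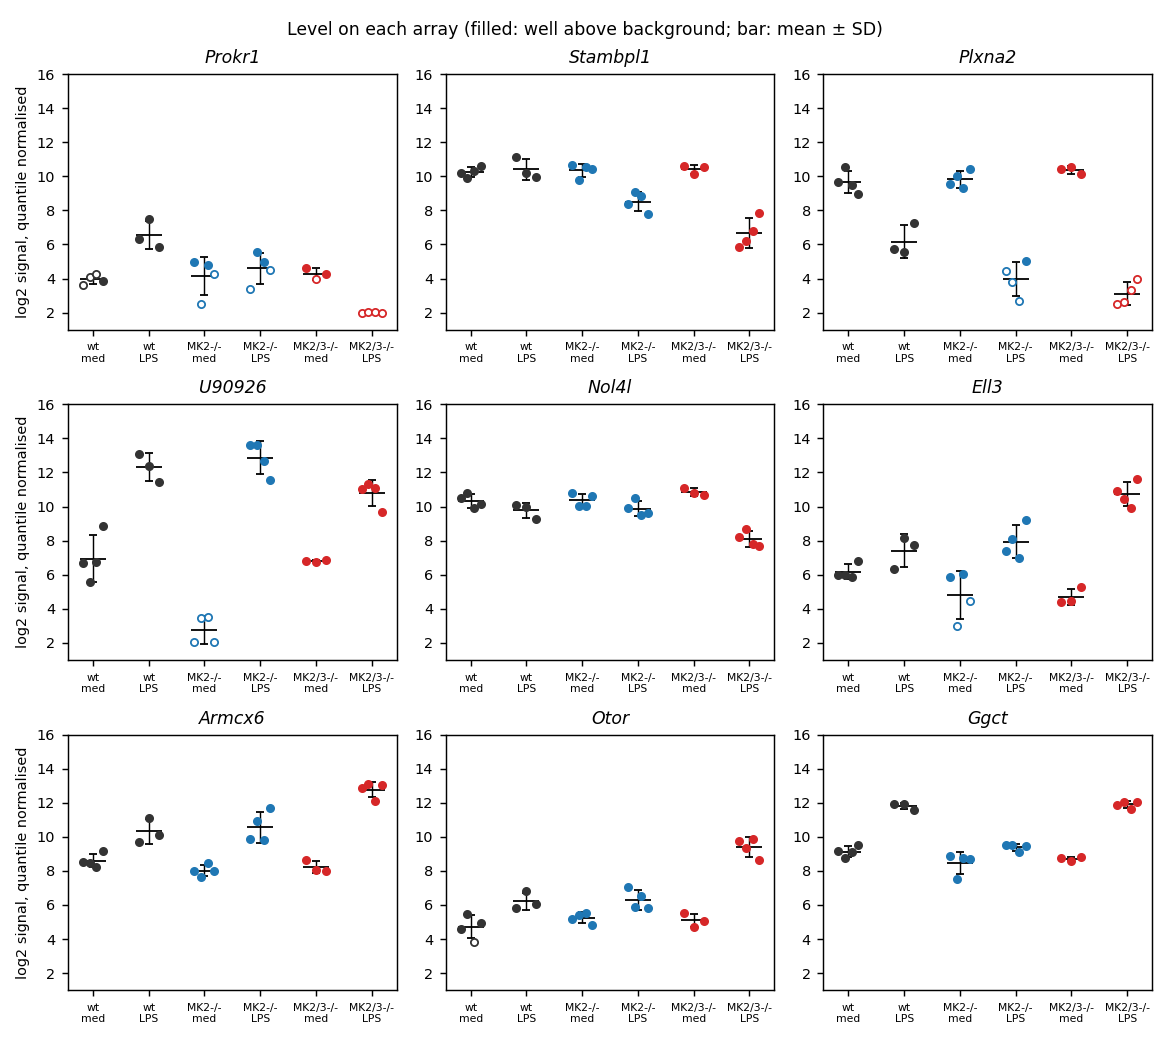
Level of each gene on the 22 arrays (y axis, quantile-normalised log2 signal, 1 panel per gene; x axis, the 6 groups; med, medium). Points are arrays, filled where the probe was well above background and open where it was not, and lines give the mean ± SD of a group. Prokr1 and Plxna2 have no filled point in LPS-treated MK2/3-/- BMDM, and U90926 has none in medium-treated MK2-/- BMDM.

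**Figure D2:**
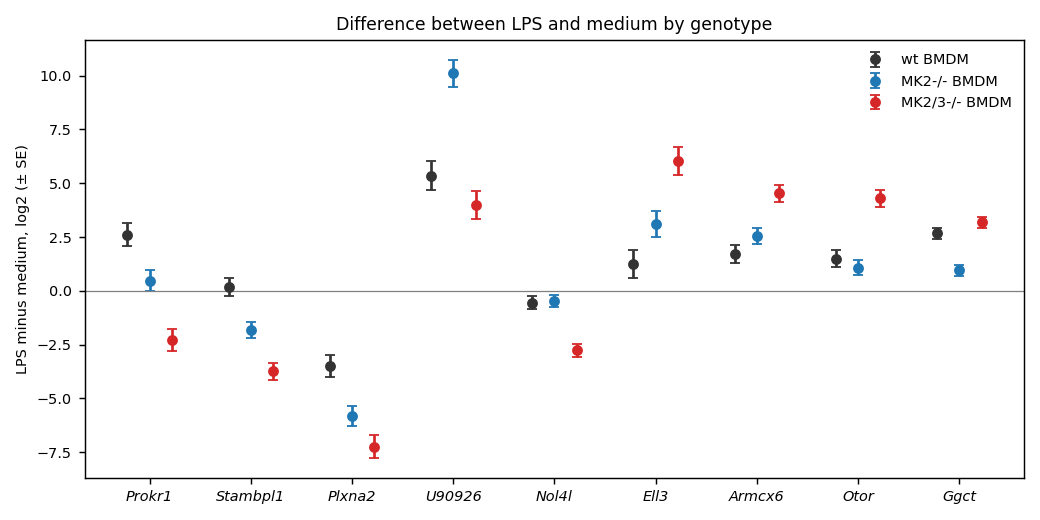
LPS minus medium (y axis, log2 difference ± SE from the fit) for each gene (x axis) in wt, MK2-/- and MK2/3-/- BMDM. Prokr1 lies above 0 in wt and below 0 in MK2/3-/-, and U90926 has its largest difference, 10.11, in MK2-/-.

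In Armcx6 (first probe), Otor, Ggct and U90926, every LPS-treated array lay above every medium-treated array in all 3 genotypes. In Plxna2 every LPS-treated array lay below. The second Armcx6 probe overlapped in wt. The other 4 genes changed their pattern between genotypes. How many of all genes separate in these ways was not counted, and the selection used these arrays, so this is a description only. Over all genes, LPS called 42.1% in wt (18.6% higher, 23.5% lower), 44.6% in MK2-/- (17.5% and 27.1%) and 48.2% in MK2/3-/- BMDM (20.2% and 27.9%), at a Benjamini-Hochberg adjusted p below 0.05 in limma. The difference of the LPS response was called for 0.679% of genes between MK2/3-/- and wt (0.107% higher, 0.572% lower) and for 0.067% between MK2/3-/- and MK2-/- (0.0313% and 0.0357%), and the 9 genes were drawn from these. These shares were unstable: the 152 genes behind the first became 49 without wt medium replicate 4 and 9 to 564 with any 1 array left out, and the 15 behind the second became 1 to 41. Levels with LPS were called different for 23.6% of genes between MK2/3-/- and wt, 13.5% between MK2/3-/- and MK2-/-, and 11.6% between MK2-/- and wt. In medium these shares were 2.02%, 2.82% and 8.82%, and nothing is read from the separations of single members against them, since the rule used these arrays.

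For the 5 genes picked against wt, the difference that picked them did not hold the LPS response in MK2-/- BMDM. For the 3 genes picked against MK2-/-, it did not hold the LPS response in wt BMDM. The calls behind the selection, however, used a spread pooled over the arrays of all groups. The same spread entered the p-values of these responses, so the counts called are no independent measure beside the shares of all genes. In MK2-/- BMDM, 4 of 5 were called, beside 44.6% of all genes: Plxna2 and Stambpl1 fell and Ell3 and Armcx6 rose, while Prokr1 was not called. In wt BMDM, 2 of 3 were called, beside 42.1% of all genes: U90926 and Ggct rose, and Nol4l was not called. Otor was picked in both contrasts and left no such response. The labels number the replicates without naming animals, so these p-values measure the spread between these samples.

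Prokr1 (probe A_52_P42069, NM_021381, chromosome 6) encodes a G protein-coupled receptor for the prokineticins, secreted peptides that act on blood vessels, neurons and myeloid cells. In wt BMDM, its level was 3.59, 4.06, 4.24 and 3.87 with medium, where only 3.87 was well above background, and 6.31, 7.49 and 5.87 with LPS. In MK2/3-/- BMDM, it was 4.63, 3.95 and 4.26 with medium and between 1.99 and 2.02 on all 4 LPS-treated arrays. Thus all LPS-treated wt arrays lay above the medium arrays, whereas those of MK2/3-/- lay below theirs and below the lowest signal that counted as well above background on the same array. The fitted response was 2.62 (SE 0.52) in wt and -2.27 (SE 0.52) in MK2/3-/-, and their difference of -4.89 (SE 0.73) rests on values at background in wt medium too, so that no fold is given for it, and it was -1.34 with normexp background correction. It was -4.87 without wt medium replicate 4. Within MK2/3-/- alone, setting the dim LPS arrays to that lowest signal left a fall of 1.503-fold. Medium replicate 2, at 3.95, was itself not well above background. On LPS replicate 2 that lowest signal, 4.33, lay above medium replicates 2 and 3, so no fall is shown against them there. In MK2-/- BMDM, the medium arrays gave 4.96, 2.51, 4.77 and 4.26 and the LPS arrays 3.36, 5.56, 4.97 and 4.48. In each of these groups 2 arrays were not well above background. The groups overlapped, and the response of 0.47 (SE 0.48, adjusted p = 0.4703, limma) was not called. It was -0.07 without MK2-/- medium replicate 2 and 0.55 without both replicate 3 arrays. In the prokineticin list, the ligand genes Prok1 and Prok2 were tested and Prokr2 was not. Prok2 rose in wt (0.91, SE 0.31, adjusted p = 0.02217) and in MK2/3-/- (1.23, SE 0.31, adjusted p = 0.002454). Prok1 was called in MK2/3-/-, where it rose (0.92, SE 0.27, adjusted p = 0.007626), and neither ligand was called in MK2-/-.

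Plxna2 (A_51_P229602, NM_008882, chromosome 1) encodes plexin-A2, a receptor that binds semaphorins, mostly together with neuropilins. With medium its level was 9.68, 10.52, 9.49 and 8.95 in wt, 9.55, 9.99, 9.32 and 10.42 in MK2-/-, and 10.44, 10.55 and 10.12 in MK2/3-/- BMDM, and these groups overlapped. With LPS it was 5.71, 5.53 and 7.28 in wt BMDM. It was 4.46, 3.79, 2.71 and 5.03 in LPS-treated MK2-/- BMDM, where only the last was well above background, and 2.53, 2.61, 3.34 and 4.00 in MK2/3-/- BMDM, where none was. All LPS-treated arrays of either knockout lay below all LPS-treated wt arrays, while the arrays of the 2 knockouts overlapped with each other. The response in MK2-/- was -5.82 (SE 0.48, adjusted p = 9.788e-09, limma), lower on 4 of 4 LPS arrays than on any medium array, and -5.56 without both replicate 3 arrays. It was -3.49 (SE 0.52) in wt. With dim arrays set to the lowest signal well above background, it fell 93.9-fold in MK2/3-/- on the processed signals. The difference to wt was -3.76 (SE 0.74), or -3.52 without wt medium replicate 4, and its size rested on the treatment of dim signals, with -2.92 under 75th percentile scaling and -1.57 with normexp background correction. The latter also gave -3.46 in MK2-/-, which was still called. Of 28 other plexins, neuropilins and semaphorins tested, 6 rose and 7 fell in each genotype, beside 42.1%, 44.6% and 48.2% of all genes called in either direction. Plxna4 fell in MK2-/- (-2.04, SE 0.58, adjusted p = 0.007081) and MK2/3-/- (-2.88, SE 0.63, adjusted p = 0.0007712), and its value in wt was -1.19 (SE 0.63, adjusted p = 0.1389). Plxna3 fell in wt (-1.30, adjusted p = 0.04917) and MK2/3-/- (-1.44, adjusted p = 0.02616). Plxna1 rose in MK2/3-/- (0.77, adjusted p = 0.009183).

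Stambpl1 (A_55_P2102350, NM_029682, chromosome 19) encodes a deubiquitinase related to AMSH, the product of Stambp, which removes ubiquitin chains at endosomes. With medium its level was 10.19, 9.91, 10.30 and 10.59 in wt, 10.63, 9.79, 10.53 and 10.43 in MK2-/-, and 10.58, 10.12 and 10.56 in MK2/3-/-, and these groups overlapped. With LPS, the wt arrays were at 11.13, 10.17 and 9.97. The MK2-/- arrays were at 8.37, 9.05, 8.85 and 7.79 with LPS, and the MK2/3-/- arrays at 5.86, 6.20, 6.77 and 7.85. All LPS-treated arrays of both knockouts were thus below their medium arrays and below wt, and the highest MK2/3-/- array just overlapped with the lowest MK2-/- array. The response in MK2-/- was -1.83 (SE 0.37, adjusted p = 0.0004478, limma), or -1.88 without both replicate 3 arrays. It was 0.17 (SE 0.40) in wt and -3.75 (SE 0.40) in MK2/3-/-, a difference of -3.92 (SE 0.57) that was -4.04 without wt medium replicate 4. Stambp was not called in any genotype (0.28, 0.58 and 0.22, with adjusted p of 0.4821, 0.09033 and 0.5735 in limma). None of the 5 related genes tested was called in wt or MK2-/- BMDM, and 1 fell in MK2/3-/-.

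Ell3 (A_55_P2095251, NM_145973, chromosome 2) belongs to the ELL family of elongation factors, which release paused RNA polymerase II. With medium its level was 6.01, 5.98, 5.87 and 6.82 in wt, the last on replicate 4, and 5.88, 3.02, 6.01 and 4.43 in MK2-/-, where 3.02 and 4.43 were not well above background. It was 4.38, 4.48 and 5.25 in medium-treated MK2/3-/- BMDM, below every wt array. With LPS it was 6.31, 8.17 and 7.76 in wt, 7.38, 8.12, 7.0 and 9.20 in MK2-/-, and 10.93, 10.47, 9.93 and 11.61 in MK2/3-/-. The LPS arrays of wt and MK2-/- overlapped, and all of MK2/3-/- lay above them. The response in MK2-/- was 3.09 (SE 0.60, adjusted p = 0.0002939, limma) and higher on 4 of 4 LPS arrays, with 3.79 without both replicate 3 arrays and 2.48 without medium replicate 2. It was 1.24 (SE 0.65) in wt, where the groups overlapped, and 6.03 (SE 0.65) in MK2/3-/-. The difference to wt, 4.79 (SE 0.92), was 4.57 without wt medium replicate 4, and it was made up of a lower medium level (-1.47) and a higher LPS level (3.32) in MK2/3-/-. Among 14 other genes of the ELL family and the super elongation complex, 3 rose and 4 fell in wt, 4 and 3 in MK2-/-, and 4 and 4 in MK2/3-/-. Its paralog Ell2 rose in all 3 (1.84, 2.20 and 1.64, adjusted p = 1.643e-05, 4.305e-07 and 3.748e-05), and Ell fell in wt (-0.75, adjusted p = 0.0282) and MK2/3-/- (-1.12, adjusted p = 0.001535).

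Armcx6 (NM_001007578, chromosome X) is one of a cluster of armadillo-repeat genes on the X chromosome, some of which act at mitochondria. With medium, its first probe (A_55_P2014319) lay at 8.53, 8.45, 8.25 and 9.15 in wt, at 8.02, 7.63, 8.45 and 7.99 in MK2-/-, and at 8.64, 8.08 and 8.01 in MK2/3-/-. With LPS it lay at 9.70, 11.11 and 10.12 in wt, at 9.87, 10.90, 9.80 and 11.68 in MK2-/-, and at 12.85, 13.09, 12.11 and 13.01 in MK2/3-/-. The 3 medium groups overlapped, and so did LPS-treated wt and MK2-/-, whereas each LPS-treated MK2/3-/- array was above all others. The response in MK2-/- was 2.54 (SE 0.38, adjusted p = 1.789e-05, limma) and 2.94 without both replicate 3 arrays. It was 1.72 (SE 0.41) in wt and 4.53 (SE 0.41) in MK2/3-/-, and the difference of 2.81 (SE 0.58) was 2.62 without wt medium replicate 4.

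The second Armcx6 probe (A_55_P2108993) gave responses of 1.28 in wt, 1.98 in MK2-/- and 4.70 in MK2/3-/-, in the same order as the first. Its LPS arrays in wt, at 6.56, 7.89 and 7.49, overlapped with medium replicate 4 at 6.64, and its lowest LPS-treated MK2/3-/- array, 8.80, overlapped with the highest MK2-/- array, 8.99. The difference of the response between MK2/3-/- and wt was 3.42 for this probe and 2.81 for the first. With each array scaled to its 75th percentile, the values were 2.69 and 2.72. The 2 probes read the same RNA and are no replicates of each other. The other 8 genes had 1 probe each, so that no agreement between probes can be given for them.

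**Figure D3:**
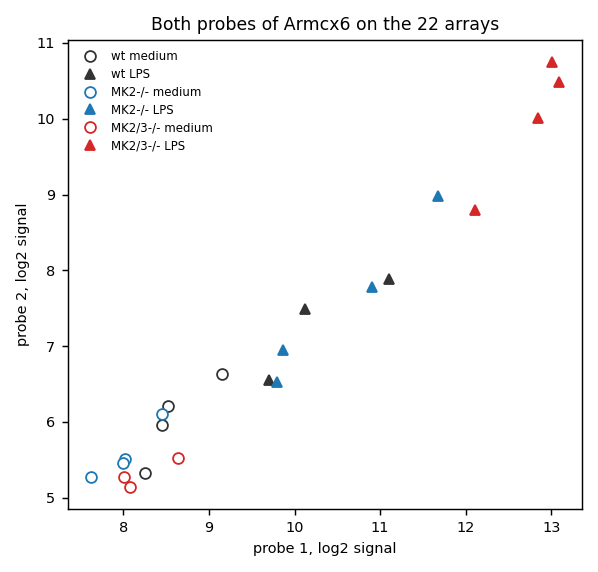
Signal of both Armcx6 probes on the 22 arrays (x axis, probe 1; y axis, probe 2; quantile-normalised log2 signal). Circles are medium-treated and triangles LPS-treated arrays; on both probes the 4 LPS-treated MK2/3-/- arrays have the highest mean, 12.77 and 10.01.

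Armcx3, which overlaps Armcx6 in the gene table, rose in all 3 genotypes (2.50, 3.10 and 2.60, adjusted p = 0.001322, 5.702e-05 and 0.0006862 in limma). Whether the Armcx6 probes also read Armcx3 was not tested, since the probe sequences were not used here. Of the 8 other ARMCX and GPRASP genes tested, 2 rose and 1 fell in wt, 1 and 1 in MK2-/-, and 2 and 1 in MK2/3-/- BMDM.

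Otor (A_51_P205524, NM_020595, chromosome 2) encodes otoraplin, a small secreted protein of the MIA family known from the inner ear. It was 4.61, 5.47, 3.85 and 4.97 in wt BMDM with medium, 5.16, 5.43, 5.54 and 4.82 in MK2-/-, and 5.51, 4.73 and 5.06 in MK2/3-/-. With LPS it was 5.83, 6.80 and 6.04 in wt, 7.05, 5.86, 6.52 and 5.83 in MK2-/-, and 9.75, 9.32, 9.90 and 8.63 in MK2/3-/-. The medium levels overlapped, LPS-treated wt and MK2-/- overlapped, and MK2/3-/- stood above both. The responses were 1.50 (SE 0.39), 1.07 (SE 0.36) and 4.30 (SE 0.39), with differences of 2.81 (SE 0.55) to wt (2.73 without wt medium replicate 4, and 1.99 under 75th percentile scaling) and 3.23 (SE 0.53) to MK2-/- (3.20 without both replicate 3 arrays). Of 3 family members tested, 1 rose and 1 fell in wt, and 1 rose and 2 fell in either knockout. Mia rose in all genotypes (0.71, 0.55 and 0.83, adjusted p = 0.005339, 0.01484 and 0.001201 in limma) and Mia3, whose product acts in the export of collagen from the endoplasmic reticulum, fell in all (-1.18, -1.24 and -1.45, adjusted p = 2.12e-06, 2.449e-07 and 9.755e-08).

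Ell3, Armcx6 and Otor were picked for a larger rise in MK2/3-/- than in wt, so the RefSeq windows (build GRCm38.p6) of 250 bases before to 50 bases after their start sites are shown, 5′ to 3′ on the strand of the gene. Capitals mark letters of motifs searched on both strands: GGNNTTTCC (NF-kB), TGANTCA (AP-1), TGACG (a core of the CRE), TTCNNNGAA (STAT) and AAANNGAAA (IRF). Overlapping matches run together.
Ell3, chr2:121442552-121442851, minus strand: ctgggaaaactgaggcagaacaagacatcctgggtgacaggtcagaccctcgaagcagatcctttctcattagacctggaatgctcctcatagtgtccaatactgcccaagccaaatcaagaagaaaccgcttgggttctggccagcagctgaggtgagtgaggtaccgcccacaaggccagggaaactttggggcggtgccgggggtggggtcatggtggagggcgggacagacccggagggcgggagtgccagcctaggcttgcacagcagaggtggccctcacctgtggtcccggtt
Armcx6, chrX:134751370-134751669, minus strand: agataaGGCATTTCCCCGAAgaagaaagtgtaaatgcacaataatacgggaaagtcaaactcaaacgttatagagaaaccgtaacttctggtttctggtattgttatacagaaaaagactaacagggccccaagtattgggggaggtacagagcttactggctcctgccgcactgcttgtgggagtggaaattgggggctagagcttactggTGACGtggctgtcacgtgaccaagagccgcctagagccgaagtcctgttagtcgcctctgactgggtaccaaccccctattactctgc
Otor, chr2:143078143-143078442, plus strand: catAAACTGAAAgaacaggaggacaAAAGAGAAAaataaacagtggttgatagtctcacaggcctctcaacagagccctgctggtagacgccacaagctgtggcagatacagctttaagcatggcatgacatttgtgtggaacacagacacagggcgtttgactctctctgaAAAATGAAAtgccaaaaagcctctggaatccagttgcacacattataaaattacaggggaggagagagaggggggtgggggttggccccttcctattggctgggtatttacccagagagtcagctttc

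The Ell3 window held none of these motifs. The Armcx6 window held GGNNTTTCC and TTCNNNGAA, which overlap, and TGACG once. The Otor window held AAANNGAAA 3 times. Among all 32851 windows of this length, 5.82% held GGNNTTTCC, 7.81% TGANTCA, 20.8% TGACG, 8.30% TTCNNNGAA and 10.6% AAANNGAAA. No motif was shared by the 3 windows. All 9 genes had an entry, with 13 windows in all.

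U90926 (A_52_P203440, NR_033483, chromosome 5) is a long non-coding RNA. With medium it was 6.66, 5.56, 6.72 and 8.83 in wt, the last on replicate 4, and 6.82, 6.73 and 6.86 in MK2/3-/-. In medium-treated MK2-/- BMDM it was 2.03, 3.46, 3.49 and 2.03, and no array was well above background. With LPS it was 13.07, 12.39 and 11.45 in wt, 13.59, 13.63, 12.65 and 11.57 in MK2-/-, and 11.03, 11.34, 11.09 and 9.70 in MK2/3-/-. All LPS arrays of MK2/3-/- lay below those of the other genotypes, which overlapped with each other. The response in wt, which was outside the difference that picked the gene, was 5.36 (SE 0.66, adjusted p = 2.631e-06, limma), higher on 3 of 3 LPS arrays, and 5.99 without wt medium replicate 4. The difference between MK2/3-/- (3.99, SE 0.66) and MK2-/- was -6.12 (SE 0.90) as measured, -6.44 without both MK2-/- replicate 3 arrays and -3.27 with normexp background correction. With LPS the level in MK2/3-/- differed from MK2-/- by -2.07. With medium it was 8.79-fold higher, with the dim arrays set to the lowest signal well above background. U90926 was thus the gene for which MK2-/- rather than MK2/3-/- stood apart in medium, and its response in MK2/3-/- differed from wt by -1.37 (SE 0.93). In MK2-/- it rose 585.5-fold with the dim arrays set in the same way. On the same arrays, the B cell and erythroid markers of medium-treated MK2-/- BMDM, given above, lay apart by mean but overlapped by summed signal. Their part in this was not tested.

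Ggct (A_52_P641758, NM_026637, chromosome 6) encodes gamma-glutamylcyclotransferase, an enzyme of the gamma-glutamyl cycle of glutathione. With medium it was 9.18, 8.73, 9.12 and 9.50 in wt, 8.85, 7.51, 8.77 and 8.68 in MK2-/-, and 8.75, 8.60 and 8.79 in MK2/3-/-. With LPS it was 11.90, 11.90 and 11.59 in wt, 9.52, 9.51, 9.09 and 9.48 in MK2-/-, and 11.89, 12.06, 11.61 and 12.05 in MK2/3-/-. LPS-treated wt and MK2/3-/- overlapped, and all 4 MK2-/- arrays lay below both. Here too MK2-/- was the genotype that stood apart, on the arrays on which the B cell and erythroid markers did, whose part was not tested. The response in wt was 2.67 (SE 0.26, adjusted p = 1.698e-07, limma), higher on 3 of 3 LPS arrays, and 2.79 without wt medium replicate 4. It was 0.95 (SE 0.24) in MK2-/- and 3.19 (SE 0.26) in MK2/3-/-, a difference of 2.24 (SE 0.36) between these knockouts that was 2.03 without both MK2-/- replicate 3 arrays and 2.59 without both replicate 2 arrays. MK2/3-/- and wt differed by 0.52 (SE 0.37). Of 10 other genes of the gamma-glutamyl cycle and glutathione synthesis, 2 rose and 4 fell in wt and in MK2-/-, and 2 rose and 5 fell in MK2/3-/-. Gclc, the catalytic subunit of the rate-limiting enzyme of glutathione synthesis, fell in wt (-2.03, adjusted p = 0.000886) and MK2/3-/- (-1.75, adjusted p = 0.002259). Its value in MK2-/- was -0.98 (adjusted p = 0.05456). Chac1, an enzyme that degrades glutathione, rose in all 3 (2.22, 3.76 and 1.95, adjusted p = 0.04866, 0.0002567 and 0.0449).

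Nol4l (A_52_P476029, NM_001001986, chromosome 2) encodes nucleolar protein 4-like. The medium levels overlapped, at 10.48, 10.82, 9.91 and 10.14 in wt, 10.77, 10.04, 10.01 and 10.62 in MK2-/-, and 11.11, 10.77 and 10.70 in MK2/3-/-. With LPS it was 10.08, 9.98 and 9.29 in wt, 9.92, 10.49, 9.48 and 9.61 in MK2-/-, and 8.23, 8.67, 7.80 and 7.68 in MK2/3-/-. LPS-treated MK2/3-/- arrays were below all others, whereas wt and MK2-/- overlapped with each other and with their medium arrays. The response in wt, -0.55 (SE 0.30, adjusted p = 0.1595, limma), was not called, nor was the -0.62 without wt medium replicate 4 (adjusted p = 0.1551). It was -0.48 (SE 0.28) in MK2-/- and -2.76 (SE 0.30) in MK2/3-/-, which differed by -2.28 (SE 0.42), or -2.29 without both replicate 3 arrays. The difference to wt was of like size, -2.21 (SE 0.43). Nol4, its only relative in the list, was not called in any genotype (0.09, -0.29 and 0.29, adjusted p = 0.7828, 0.2639 and 0.2917).

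Together, the lists held 71 other tested genes, of which 15 rose and 17 fell in wt, 14 and 17 in MK2-/-, and 17 and 20 in MK2/3-/-, or 45.1%, 43.7% and 52.1%, close to the 42.1%, 44.6% and 48.2% of all genes. Their median log2 response was 0.06 in wt and 0.16 in MK2-/-, beside -0.04 and -0.01 over all genes. None of the 71 had a called difference of the LPS response between genotypes in limma. At an unadjusted p below 0.05 there were 7 for MK2/3-/- against wt (9.86%, beside 11.4% of all genes), 7 for MK2/3-/- against MK2-/- (9.86%, beside 8.60%) and 3 for MK2-/- against wt (4.23%, beside 7.53%). With array weights, 2 of the 71 were called for MK2/3-/- against wt.

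The 4 nearest genes with a symbol around each member made 36 neighbours, of which 16 were tested. None was called for a difference of the LPS response between genotypes in limma, and at an unadjusted p below 0.05 there was 1 for MK2/3-/- against wt and 1 for MK2/3-/- against MK2-/-. In wt BMDM, 3 of the 16 rose with LPS and 4 fell, close to the 18.6% and 23.5% of all genes. The 3, named after their values were seen, were Armcx3, Ppef2 beside U90926 (4.68, adjusted p = 1.708e-07 in limma) and Nod1 beside Ggct (4.45, adjusted p = 2.505e-10). Nod1 rose by 4.16 in MK2-/- and 4.82 in MK2/3-/-, the genotypes between which Ggct was picked.

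The genes most like each member were those with the smallest root mean square difference from it over the 22 arrays, after each gene was centred on its mean, among 17519 genes. The measure is a description, since the genes share arrays and normalisation. Armcx6 was the gene closest to Ell3 (0.73), and Lck, a kinase known from T cells, was the closest to Armcx6 (0.54), followed by Rgcc (0.65) and Sbds (0.65). After Armcx6, Lck (0.91) and Tmem39a (0.98) were closest to Ell3. Lck had responses of 2.68 in wt, 2.75 in MK2-/- and 5.26 in MK2/3-/-. For Otor they were 1500015L24Rik (0.76), Cited2 (0.76) and F930015N05Rik (0.78). With medium, the 4 tested T cell markers averaged 7.75 to 7.87 in wt, 7.26 to 8.60 in MK2-/- and 8.09 to 8.36 in MK2/3-/-. With LPS these means were 8.22 to 8.64, 7.68 to 8.47 and 8.26 to 9.27. By log2 of the summed signals, MK2/3-/- lay above wt with medium (12.7 to 13.2 against 11.8 to 12.1). The same held with LPS (12.7 to 13.5 against 12.4 to 12.5). The sums of MK2-/-, 12.3 to 13.2 with medium and 12.4 to 13.1 with LPS, overlapped with MK2/3-/-. The part of T cell markers in the levels of these genes was not tested.

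Plxna2 was followed within 0.58 to 0.69 by Arl11, Agap1 and Nipal3, all with a deeper fall in MK2/3-/- (-6.54, -6.33 and -6.39) than in wt (-4.05, -4.09 and -3.80). Stambpl1 was followed by Rnf113a1 (0.46), Tbc1d7 (0.52) and Slc41a1 (0.55), Nol4l by Zfp758 (0.38), H2bc21 (0.42) and Irgq (0.42), and Prokr1 by Ggta1 (0.78), Ppp1r3d (0.83) and Acvr1b (0.87). Ggct was followed by Ppm1k (0.42), C1ra (0.59) and Ifi208 (0.60), each with its smallest response in MK2-/- (1.71, 1.49 and 1.64). U90926 had no gene that close: Socs1, Saa1 and Il4i1 were 1.32 to 1.34 away, and their responses of 6.91, 7.18 and 7.81 in MK2-/- stood beside 10.11 for U90926.

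The selection was a cut in a ranking. For MK2/3-/- against wt, the called genes next in order were Mab21l3 (2.60) and Lck (2.58) above 0, after Armcx6 (2.81), and Lhfpl2 (-3.49) below 0, after Plxna2 (-3.76). For MK2/3-/- against MK2-/-, Lck (2.50) ranked between Otor and Ggct and was not among the 9, and Tcl1b2 (2.16) came next after Ggct (2.24). Below 0, Adgrg5 (-2.93) and the deleted gene Mapkapk3 (-2.61) ranked between U90926 and Nol4l, and Ampd3 (-2.12) came next. Each of the 9 kept the sign of its difference in every setting tried, as the plot of settings shows. The genes were picked for large differences on these same arrays, so the kept signs are no independent support.

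**Figure D4:**
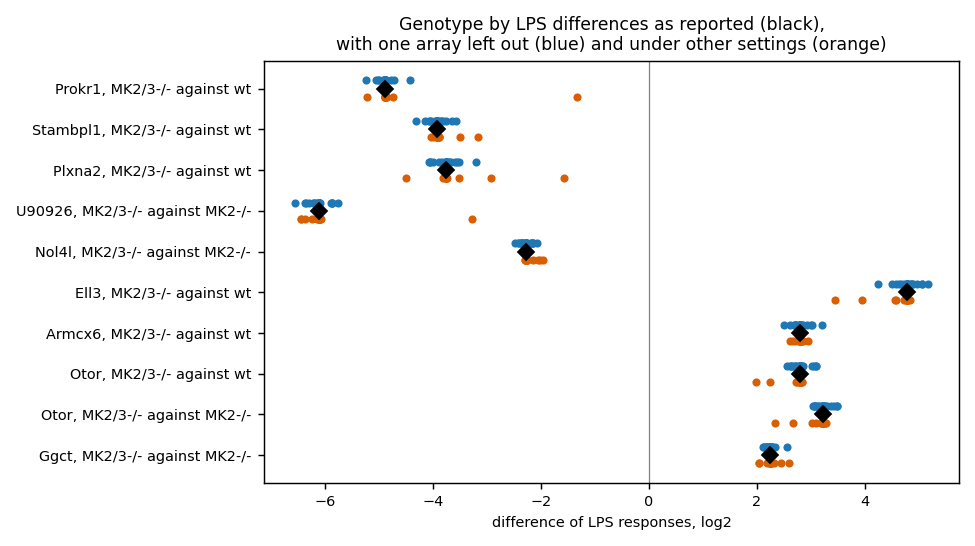
Difference of the LPS response between genotypes (x axis, log2) for each gene and the contrast that picked it (y axis). Diamonds are the values as reported, blue points leave out 1 array each and orange points use other settings. No point crosses 0, which is no independent support, since large differences on the same arrays picked the genes. The largest displacement is that of Prokr1, from -4.89 to -1.34 with normexp background correction.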

How the data were processed

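RNA of 22 BMDM cultures was labelled with Cy3 and hybridised to Agilent arrays in a single colour. The authors deposited scanner output of Feature Extraction 11.0.1.1, with a processed intensity per spot that the software corrected for background and spatial trend, and also log2 values, which they quantile normalised and centred per probe. These followed the values computed here with r of 0.993 to 0.999, and their medians per array lay between -0.07 and 0.08. The design text counts 23 samples, with 3 of medium-treated MK2-/- BMDM, whereas the labels used here give 4 of these and 3 of medium-treated MK2/3-/- BMDM. Groups follow the labels.

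From the processed intensities, control spots were dropped, spots marked as outliers were set to missing, and log2 values were quantile normalised over the 22 arrays. A probe had to be well above background on 3 or more arrays, which left 28103. Each gene was represented by its brightest probe on average, and symbols came from RefSeq accessions matched to the GRCm38.p6 gene table. Since the platform's own annotation uses mm9, no gene coordinates are given beyond the promoter windows, which come from RefSeq. The median processed signal was 32.7 to 108 per array, 61.1% to 82.7% of probes were well above background, and precision is limited by the number of arrays. A linear model with 6 group means was fitted in limma 3.58.1 (R 4.3.3) with eBayes, and called at a two-sided Benjamini-Hochberg adjusted p below 0.05 over 22383 genes. The code was tested on simulated data.

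The 9 genes and all gene lists were chosen with earlier results of these data known. The text names the 9 genes, the closest paralogs, the 3 genes most alike each, and the genes next in rank. For some folds, a group with no array well above background was set to the dimmest signal that still counted as such on each array. Its own signal was kept where higher. Such a fold holds for the processed signals and is no lower bound under other background corrections, since normexp gave smaller differences. Alternatives were other scaling, background, filter, probe choice, variance models, the methods' t-test, a replicate block and each array left out. The files hold median rather than mean spot signals, so normexp (offset 50) used the median signals.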

Additional observations from a re-analysis of the deposited data

Results flagged for a closer look

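As measured, Prokr1 moved in opposite directions in 2 genotypes: every LPS-treated wt array lay above every medium array (mean difference 2.62), and every LPS-treated MK2/3-/- array lay below its medium arrays (-2.27). Only 1 of 4 wt medium arrays and 0 of 4 LPS-treated MK2/3-/- arrays were well above background. With normexp background correction the difference between these genotypes was -1.34. This contrast picked the gene, and the difference was not tested. Among 36 groups of 4 arrays, 3 held an array far from the other 3 by Dixon's ratio, where chance gives about 1 in 20. Ell3 in medium-treated wt replicate 4 was at 6.82, next to 6.01. Ggct in LPS-treated MK2-/- replicate 3 was at 9.09, next to 9.48, and Ggct in medium-treated MK2-/- replicate 2 was at 7.51, next to 8.68.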

How the results depend on the processing

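Arrays number 3 or 4 a group, which limits the precision. All 9 genes kept the sign of the difference that picked them in the settings run, which is no independent support, since large differences on the same arrays picked them. Of the responses outside those differences, 4 of 5 and 2 of 3 stayed called, except that array weights called Nol4l as well (-0.68, adjusted p = 0.04325 in limma, with 0.04325 to 0.5292 over all settings), which makes 3 of 3. Prokr1 in MK2-/- BMDM turned to -0.23 with array weights, -0.39 without both MK2-/- replicate 2 arrays and -0.0717 without the medium one of them (-0.0717 to 0.88 with 1 array left out), and was called in none of these. Normexp correction moved the differences of Prokr1 to -1.34, Plxna2 to -1.57, U90926 to -3.27, Ell3 to 3.45, Stambpl1 to -3.17 and Otor to 2.24 (wt) and 2.34 (MK2-/-), and the response of Ell3 in MK2-/- to 1.63. Under 75th percentile scaling Plxna2 was -2.92 and Otor 1.99 and 2.67, and with array weights Plxna2 was -4.51. The difference between the shifts of the Armcx6 probes went from 0.61 to -0.0246 under 75th percentile scaling. Related genes called for MK2/3-/- against wt went from 0 to 2 with array weights, and the 0 held with 1 array left out (0 to 0).

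The counts over all genes for the contrasts that picked the members were unstable: 152 for MK2/3-/- against wt became 21 under 75th percentile scaling, 14 with only the compared groups, 1170 with array weights and 9 to 564 with 1 array left out, over 1.5 times away in 17 of 22 such fits, with 9 without MK2/3-/- medium replicate 2 and 564 without MK2/3-/- LPS replicate 4. The 15 against MK2-/- became 138 with array weights, 3 without both MK2-/- replicate 2 arrays and 1 to 41 with 1 array left out, over 1.5 times away in 13 of 22. With 1 array left out, the call of Nol4l was kept in 4 of 22 fits, that of Armcx6 in 10, Plxna2 in 12, Otor in 13 for either contrast, Ell3 and Ggct in 14 and U90926 in 19 of 22. Those of Prokr1 and Stambpl1 were kept in 22 of 22. The cause was not tested.

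Deviations of same-numbered LPS and medium arrays correlated above 0.1 in 7 of 10 pairs (-0.09 to 0.36), as did those sharing a letter of the array names (-0.09 to 0.42, all 10 of the same age), against 5 of 30 pairs of unlike letters. The best match of an LPS array was its own number in 7 of 10 and its own letter in 6 of 10, a hint from the data and not from the design. Since not every pair passed and the labels tie no numbers to animals, the fit has no block. With the replicate number within genotype as a random replicate block (correlation 0.12), the count became 349, and 387 with the letter of the array names (0.14). The calls of the members outside the differences that picked them did not change (4 of 5 and 2 of 3). The settings without both MK2-/- replicate 3 arrays, with or without wt medium replicate 4, were chosen after seeing the data.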
